A study of Homo sapiens with 24 samples.

Results

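TXNIP, TXN and the 4 genes ARRDC1, ARRDC2, ARRDC3 and ARRDC4 were followed on 24 one-colour arrays of human HCT-116 colorectal cancer cells. The members were all non-control probes named for these genes. They came to 6 probes, 1 per gene, among 34127 probes for 27363 genes. The cells were a single stably transfected clone that carried a Tet repressor and a Tet-inducible dominant-negative Tcf4 (DN-Tcf4), a form of the transcription factor that blocks Wnt-driven transcription, and all groups shared this background. The 4 treatments were no agent (Ctl), 5 mM sodium butyrate (NaB), 4 μg/ml doxycycline (Doxy), the inducer of DN-Tcf4, and both agents (DoxyNaB). Ctl was labelled both untreated and mock-treated. In the study's array methods, doxycycline or none came first, and a cotreatment with butyrate or none then lasted 17.5 hr. How long doxycycline preceded butyrate is not stated. The study describes DN-Tcf4 protein in this clone as low with the inducer alone and high when butyrate is added, which limits Doxy as a model of DN-Tcf4 action. Each treatment had 6 biological replicates, numbered as experiments 1 to 6. Butyrate is a short-chain fatty acid made by fibre fermentation in the colon and an inhibitor of histone deacetylases. The design asks which genes respond to butyrate, and whether the response differs once DN-Tcf4 is induced.

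Alpha-arrestins are adaptor proteins with an arrestin fold. Most bind ubiquitin ligases of the NEDD4 family through PPxY motifs and direct membrane proteins to endocytosis or sorting. TXNIP, the thioredoxin-interacting protein, is the best known of them: it binds thioredoxin, the small redox protein encoded by TXN, and restrains glucose uptake by glucose transporters. TXNIP and ARRDC4 are known targets of the glucose-sensing factor MondoA with its partner MLX, which binds paired E-box-like sequences called carbohydrate response elements, and TXNIP is a well-known gene induced by histone deacetylase inhibitors.

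The sequences before the gene starts are shown for TXNIP and ARRDC4 because these are the members for which such elements are known. RefSeq promoters on GRCh38.p14 were found for 6 of 6 members, and the 250 bases before the start are printed 5′ to 3′ on the strand of the gene. Capitals mark paired CACGNG boxes with any 5 bases between them, the E-box CACGTG, and CCAAT boxes in either orientation (ATTGG on the opposite strand). TXNIP lies on the minus strand at chr1:145996580-145996829 and ARRDC4 on the plus strand at chr15:97960453-97960702.
TXNIP: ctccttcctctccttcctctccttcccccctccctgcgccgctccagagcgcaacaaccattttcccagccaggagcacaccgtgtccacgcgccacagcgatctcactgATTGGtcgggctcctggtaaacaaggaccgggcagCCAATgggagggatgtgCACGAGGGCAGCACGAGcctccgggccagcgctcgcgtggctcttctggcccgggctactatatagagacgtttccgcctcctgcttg
ARRDC4: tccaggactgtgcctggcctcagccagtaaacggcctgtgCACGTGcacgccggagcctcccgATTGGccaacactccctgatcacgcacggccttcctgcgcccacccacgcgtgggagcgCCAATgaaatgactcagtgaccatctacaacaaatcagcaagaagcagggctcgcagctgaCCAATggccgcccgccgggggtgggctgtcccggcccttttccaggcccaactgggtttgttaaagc
The paired boxes of TXNIP began 88 bases before the start, on the strand of the gene. Such a pair was present in 20 of 35116 promoter windows of 300 bases (0.057%), searched on both strands. No other window of the members held it. ARRDC4 held a lone CACGTG, 210 bases before its start, a sequence found in 7.26% of all windows. CCAAT was found in 34.6% of all windows and in each member other than TXN, with 2 matches in this window of TXNIP and 3 in ARRDC4. RefSeq gives TXNIP another start, whose window held none of the 7 motifs searched. TATAAA (11.5% of windows) was found in TXN and at 1 of the starts of ARRDC2, GTAAACA (3.42%) in TXNIP and ARRDC3, and CTTTGAT (2.62%), the core of a Tcf site, in none of the members' windows. GGGCGG (45%) was found in each member other than TXNIP. These are matches of letters only.

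The arrays differed in brightness. By the scanner software's own test, the share of gene spots well above background ran from 52.5% to 88.1% over the arrays. The negative controls had a mean net signal between 63.1 and 248.9 in experiments 2 to 4, between 55.1 and 64.3 in experiment 1 and between 48.4 and 53.8 in experiments 5 and 6. In experiment 1 the NaB and DoxyNaB arrays shared a slide that held no other treatment, and there a butyrate difference cannot be told apart from one between slides. All levels given here are processed signals on the log2 scale relative to the 75th percentile of the same array, which stands at a level of 0. A probe's level was not compared with that of another probe. Of the 8 epithelial marker genes, 7 entered the test. EPCAM, CDH1, KRT8, KRT18, KRT19, CDX1 and CDX2 were well above background on 24 of 24 arrays. VIL1, above it on 5 arrays, did not enter. Of 6 markers of blood, vessel and stromal cells, CD68 and COL1A1 entered the test, and both were also above background on 24 of 24 arrays. PTPRC, CD3E, PECAM1 and COL1A2, above it on between 10 and 15 arrays, did not enter. In NaB/Ctl, 1 of 7 epithelial genes, EPCAM, was called lower (-1.45), where 31.7% of all tested probes were called. The other 6 ran from -0.67 to 0.99 and were not called, with a list median of 0.30. With normexp correction CDH1 and KRT19 (each 1.04) were called higher, as was CDH1 with quantile normalization (1.10). With arrays scaled to their median with a floor, CDX2 was called lower too. COL1A1 was called higher in NaB/Ctl (1.09), a call lost with normexp correction (0.59), quantile normalization (0.83) and median scaling (0.38), and CD68 had 0.44. The part of these shifts in the members' values was not tested. All arrays held a single clone of a cell line. In such bulk samples a change in all cells cannot be told apart from one in part of them.

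**Figure D1:**
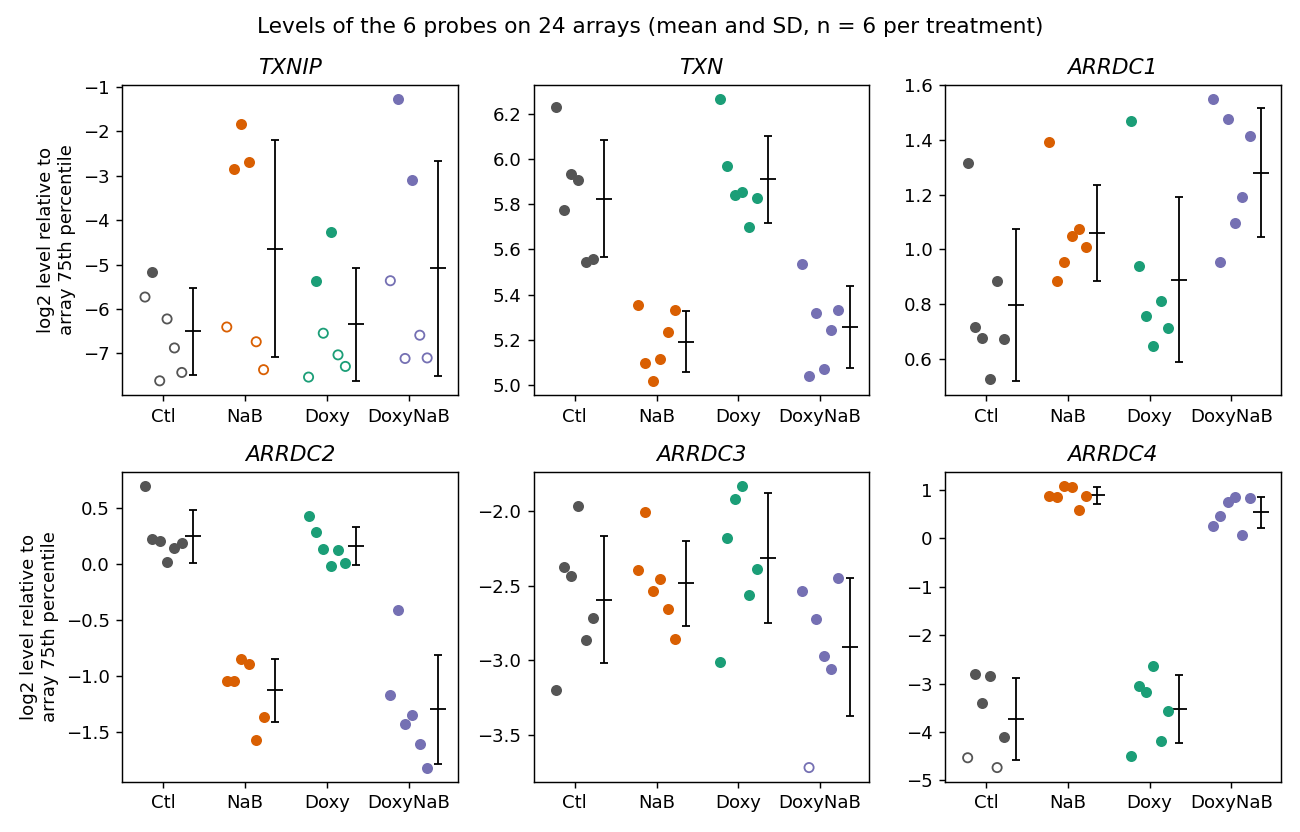
Log2 level relative to the array's 75th percentile (y axis, scaled separately in each panel) of the 6 probes in the 4 treatments (x axis), with 1 point per array placed from experiment 1 on the left to 6 on the right. Filled points were well above background and open points were not, and bars give the mean and SD of 6 arrays. ARRDC4 moves from between -4.74 and -2.80 in Ctl to between 0.59 and 1.08 in NaB, while 16 of 24 TXNIP points are open.

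Butyrate changed ARRDC4 and ARRDC2 in opposite directions, both without and with doxycycline. ARRDC4 rose 24.6-fold in NaB/Ctl, over a Ctl level at which 2 of 6 arrays were not well above background, and 7.88-fold with normexp background correction. ARRDC2 fell by 1.37 on the log2 scale. TXN was lower with butyrate by less than the 2-fold threshold, ARRDC1 and ARRDC3 were not called, and TXNIP was too dim to be tested. None of the 5 tested members was called in Doxy/Ctl, DoxyNaB/NaB or the interaction. A call required more than a 2-fold change and, after Benjamini-Hochberg adjustment, a p under 0.01 in limma's fit of all 24 arrays, with the experiment as a block. In NaB/Ctl, 2 of 5 tested members were called, where 31.7% of all 18983 tested probes were, 65.3% of them higher (21.9% with arrays scaled to their median with a floor). In DoxyNaB/Doxy the members called were again ARRDC4 and ARRDC2, where 30.6% of all tested probes were called, 59.9% of them higher (26.02% under that scaling). The median change of all tested probes was 0.17 in NaB/Ctl and 0.10 in DoxyNaB/Doxy on the log2 scale.

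TXN encodes thioredoxin, which reduces disulfides in other proteins and is held by TXNIP through its active-site cysteines. Its 60-base probe covers 618 bases of the genome (NCBI36, chr9:112046270-112046887, minus strand), as it spans a splice junction. Its level in Ctl was 5.55 at the lowest, 5.84 at the median and 6.23 at the highest over 6 arrays. In NaB it was between 5.02 and 5.35, with a median of 5.18. The groups did not overlap, and every experiment had less TXN signal with butyrate. The change was -0.63 ± 0.29 on the log2 scale (SD over 6 experiments), with a limma adjusted p of 3.3e-06. Under doxycycline the levels were between 5.70 and 6.26 in Doxy and between 5.04 and 5.54 in DoxyNaB, again without overlap. The share of all tested probes without overlap was not counted, so a lack of overlap sets no member apart from them. That change was -0.65 ± 0.19 (adjusted p = 2.3e-06, lower in 6 of 6 experiments). Both changes were short of a 2-fold difference. An adjusted p under 0.01 with no fold threshold was reached by 68.2% of all tested probes in NaB/Ctl and by 67.0% in DoxyNaB/Doxy. The difference was -0.79 in experiments 2 to 4 and -0.27 in experiments 5 and 6 in NaB/Ctl. When arrays were scaled to their median with a floor, TXN passed the fold threshold as well, at -1.36 and -1.19 in the respective comparisons. That scaling set the median of all tested probes at -0.56 and -0.44.

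TXNIP is measured by 1 probe (NCBI36, chr1:144153804-144153863, plus strand). The minus strand given for its promoter is that of GRCh38.p14, and strands were not compared between the builds. This probe was well above background on 8 of 24 arrays. It passed on all 6 arrays of no treatment and so did not enter the test. The 8 arrays all came from experiments 2 to 4, and none of the 12 arrays of the other experiments passed. By treatment they were 1 of 6 in Ctl, 3 in NaB, 2 in Doxy and 2 in DoxyNaB. The processed signal ran from 3.33 to 26.9 in Ctl with a median of 7.83, and from 2.93 to 302.9 in NaB with a median of 69.2. It ran from 3.73 to 48.8 in Doxy and from 3.88 to 546.3 in DoxyNaB. On 10 arrays the value was a surrogate that the software put in place of a signal too close to the negative controls. The groups overlapped in both butyrate comparisons.

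The log2 differences of TXNIP between NaB and Ctl were -0.67, 2.31, 5.79, 3.54, 0.14 and 0.06 in experiments 1 to 6. Between DoxyNaB and Doxy they were 2.17, 4.09, -0.57, 1.18, 0.44 and 0.19. The large differences thus stood in experiments 2 to 4 in NaB/Ctl, and those of experiments 5 and 6 were near 0. The means were 1.86 ± 2.49 and 1.25 ± 1.67 (SD, n = 6), each with a spread larger than the mean. With no filter on dim probes, limma's adjusted p was 0.0425 in NaB/Ctl and 0.182 in DoxyNaB/Doxy. With normexp correction the mean difference in NaB/Ctl was 0.46, and with quantile normalization 0.54. The 5 arrays with the highest TXNIP signal, between 115.2 and 546.3, were the same 5 that had the brightest negative controls, between 110.9 and 248.9, and all were butyrate arrays. On the other 19 arrays TXNIP was between 2.93 and 48.8 and the negative controls between 48.4 and 79.6. Probes that did not enter the test moved too. Over 14974 of them the median difference in NaB/Ctl was 1.08, with quartiles at 0.69 and 1.53. It was 1.83 in experiments 2 to 4, where TXNIP had 3.88, and 0.16 in experiments 5 and 6, where TXNIP had 0.10. The part of the negative-control brightness in the TXNIP values was not tested.

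**Figure D2:**
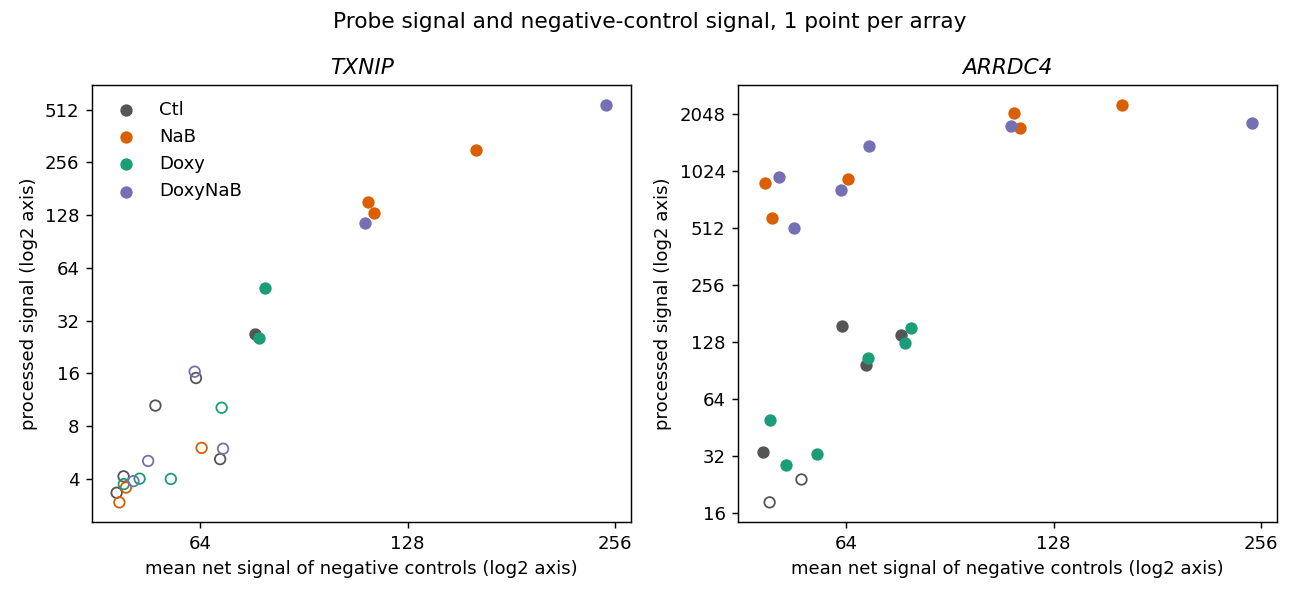
Processed signal of the TXNIP and ARRDC4 probes (y axes) against the mean net signal of the negative-control spots (x axes), all on log2 axes, with 1 point per array coloured by treatment and open where the probe was not well above background. The 5 TXNIP signals over 115 stand at the 5 brightest negative-control values, whereas the 12 butyrate arrays of ARRDC4, between 510.3 and 2277, lie above all 12 others at dim and bright negative controls alike.

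The differences of TXNIP were also set against those of TXN and ARRDC4 within each experiment, as differences of probes can be compared where levels cannot. They are a description, since TXNIP was dim on 16 of 24 arrays and the exact sign-flip permutation test over 6 experiments cannot give a p below 0.03125. In NaB/Ctl the TXNIP difference exceeded that of TXN by 2.49 ± 2.67 in log2 units (SD, n = 6), and in DoxyNaB/Doxy by 1.90 ± 1.84. Less that of ARRDC4, it was -2.76 ± 3.02 in NaB/Ctl and -2.81 ± 1.88 in DoxyNaB/Doxy. Each spread was close to or larger than its mean, other than in the last of these.

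ARRDC4 is the alpha-arrestin closest to TXNIP in sequence and shares its link to glucose uptake. Its probe lies at NCBI36 chr15:96317899-96317958 on the plus strand. The level in Ctl was -4.74 at the lowest, -3.75 at the median and -2.80 at the highest, and 4 of 6 Ctl arrays were well above background. In NaB it was 0.59 at the lowest, 0.87 at the median and 1.08 at the highest, above background on all 6. As processed signal this was 18.2 to 155.4 in Ctl and 573.3 to 2277 in NaB. The lowest NaB array stood far above the highest Ctl array, though the share of all tested probes without overlap was not counted. The change was 4.62 ± 0.74 on the log2 scale (SD over 6 experiments, 24.6-fold, adjusted p = 1.1e-12, higher in 6 of 6). In the presence of doxycycline, the levels were between -4.50 and -2.65 in Doxy and between 0.07 and 0.85 in DoxyNaB, with 6 of 6 arrays of each above background. The change there was 4.06 ± 0.51 (16.7-fold, adjusted p = 5.8e-12, higher in 6 of 6).

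The ARRDC4 response was present in every experiment, from 3.64 in experiment 2 to 5.40 in experiment 1 in NaB/Ctl. The largest differences were those of experiments 1 and 5, whose Ctl arrays did not have ARRDC4 well above background. The size of these differences thus rests on a dim Ctl value. In NaB/Ctl the response was 4.01 within experiments 2 to 4 and 5.15 within experiments 5 and 6. The negative controls of all arrays of experiments 5 and 6 were dim. With the arrays that had the 2 brightest negative controls left out the response was 4.64. Its size depended on the background correction: with normexp correction of the raw spot brightness the fold was 7.88 in NaB/Ctl and 6.77 in DoxyNaB/Doxy, with adjusted p of 1.0e-07 and 2.5e-07. Scaling to the median with a floor gave 14.8-fold and 11.4-fold.

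**Figure D3:**
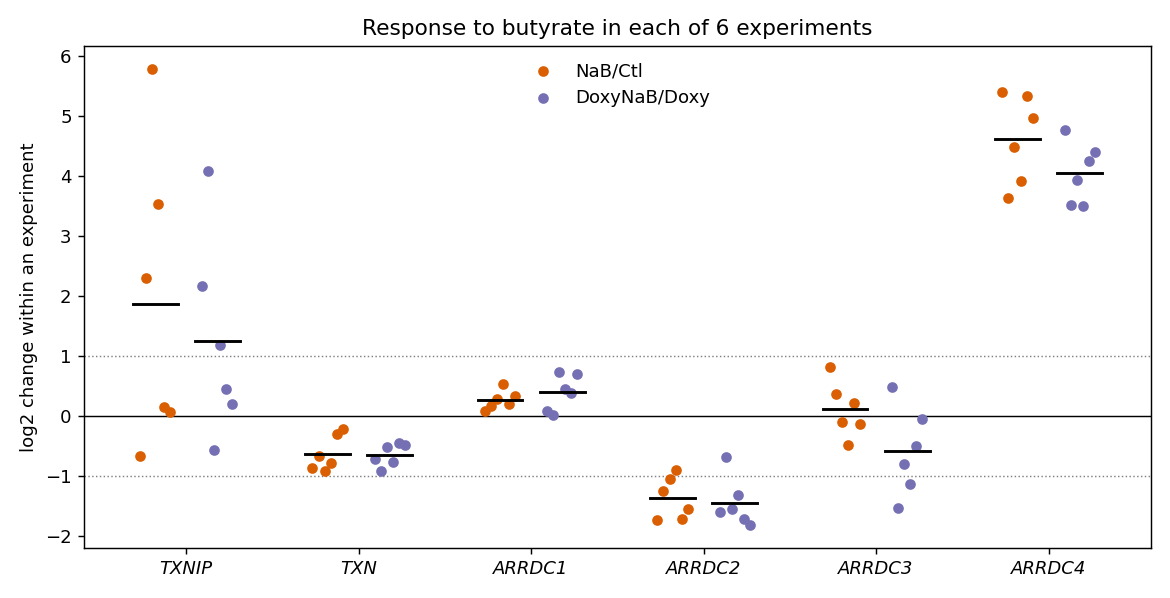
Log2 change with butyrate within each experiment (y axis) for the 6 genes (x axis), without doxycycline (NaB/Ctl, orange) and with it (DoxyNaB/Doxy, purple), with points placed from experiment 1 to 6 and black lines at the means. Dotted lines mark a 2-fold change. ARRDC4 lies between 3.49 and 5.40 throughout, ARRDC2 and TXN lie below 0 throughout, and TXNIP runs from -0.67 to 5.79.

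ARRDC2, another adaptor of the family, moved the other way. Its probe lies at NCBI36 chr19:17985251-17985310 on the plus strand and was well above background on 24 of 24 arrays. Its level was between 0.02 and 0.69 in Ctl with a median of 0.19, and between -1.57 and -0.85 in NaB with a median of -1.04. It was between -0.02 and 0.43 in Doxy and between -1.82 and -0.41 in DoxyNaB. All 12 butyrate arrays thus lay below all 12 others, and how many of all tested probes were split in this way was not counted. The change was -1.37 ± 0.35 in NaB/Ctl (adjusted p = 1.2e-07) and -1.45 ± 0.41 in DoxyNaB/Doxy (adjusted p = 5.9e-08), lower in 6 of 6 experiments in each. Within experiments 2 to 4 the change was -1.08 in NaB/Ctl, and within experiments 5 and 6 it was -1.63. With normexp correction it was -1.19 in NaB/Ctl and -0.99 in DoxyNaB/Doxy, the latter just short of a 2-fold change.

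ARRDC1 is known for recruiting TSG101 to the plasma membrane, where it drives the budding of small vesicles. Its probe lies at NCBI36 chr9:139629212-139629271 on the plus strand and was above background on every array. Its level was between 0.53 and 1.32 in Ctl and between 0.88 and 1.39 in NaB, and the groups overlapped. The difference was 0.26 ± 0.16 (adjusted p = 0.0124, higher in 6 of 6 experiments). Under doxycycline it was 0.39 ± 0.30 (adjusted p = 6.4e-04, higher in 6 of 6), well under a 2-fold change. The sign turned when arrays were scaled to their median with a floor, at -0.47 and -0.15, and neither value passed the adjusted p threshold there. That scaling moved the median of all tested probes from 0.17 to -0.56 and from 0.10 to -0.44, and ARRDC1 stood above this median under both scalings.

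ARRDC3 takes part in the ubiquitination and sorting of membrane proteins, among them integrin beta4. Its probe lies at NCBI36 chr5:90700446-90700505 on the minus strand, and 23 of 24 arrays were above background. The level was between -3.20 and -1.97 in Ctl, between -2.86 and -2.00 in NaB, between -3.01 and -1.83 in Doxy and between -3.72 and -2.45 in DoxyNaB. The 4 groups overlapped. The NaB/Ctl difference was 0.11 ± 0.45 (adjusted p = 0.674), higher in 3 of 6 experiments and lower in 3, and its 95% interval ran from -0.37 to 0.59. The DoxyNaB/Doxy difference was -0.59 ± 0.73 (adjusted p = 0.0246, lower in 5 of 6), which missed the threshold. It was -1.16 within experiments 2 to 4 (adjusted p = 0.0040) and -0.28 within experiments 5 and 6 (adjusted p = 0.240). Without the arrays that had the 2 brightest negative controls it was -0.38 (adjusted p = 0.0867).

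Doxycycline without butyrate, with the limit on DN-Tcf4 given above, was tested in Doxy/Ctl. By limma, 0 of 5 members were called, where 0.0948% of all tested probes were, and 0 had an unadjusted p under 0.05. By the methods' t-test, a paired test of each probe on its own, ARRDC3 had an unadjusted p of 0.0042. The differences were between -0.09 for ARRDC2 and 0.28 for ARRDC3, which was higher in 6 of 6 experiments (adjusted p = 0.699, 95% interval -0.20 to 0.75). In DoxyNaB/NaB limma again called 0 of 5, against 0.379% of all tested probes, and 1, ARRDC1, had an unadjusted p under 0.05. The methods' t-test gave unadjusted p of 0.0407 for ARRDC1 and 0.0089 for ARRDC4. ARRDC4 was lower with both agents than with butyrate alone in 6 of 6 experiments, by -0.35 ± 0.21 (adjusted p = 0.474), and ARRDC1 was higher in 6 of 6, by 0.22 ± 0.20 (adjusted p = 0.210). Neither passed the test.

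The interaction, the NaB/Ctl difference less the DoxyNaB/Doxy difference, was tested without a fold threshold. By limma, 0 of 5 members passed, where 1.24% of all tested probes did. The 1 member with an unadjusted limma p under 0.05 was ARRDC3 (0.0421), with a difference of 0.70 ± 0.67 that was positive in 5 of 6 experiments (adjusted p = 0.385). ARRDC4 had a difference of 0.56 ± 0.31, positive in 6 of 6 experiments (adjusted p = 0.478, 95% interval -0.06 to 1.19). By the methods' t-test ARRDC4 reached an unadjusted p of 0.0064 over the same experiments. Its largest values were 1.07 in experiment 5 and 0.64 in experiment 1, whose Ctl arrays did not have ARRDC4 well above background. Under other settings the ARRDC4 difference ran from 0.22 to 0.82. The differences of TXN (0.02 ± 0.26), ARRDC1 (-0.13 ± 0.24) and ARRDC2 (0.08 ± 0.40) were smaller than their spread. TXNIP had 0.61 ± 3.32 and was not tested.

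Genes that work with the members were counted by their brightest probe in 4 lists. In the thioredoxin system, 13 of 14 genes were tested. In NaB/Ctl, SRXN1 (sulfiredoxin, which repairs oxidised peroxiredoxins) rose by 1.71 on the log2 scale (adjusted p = 2.3e-12), and PRDX3 (the mitochondrial peroxiredoxin) fell by 1.05 (adjusted p = 2.2e-08). The other 11 were not called, where 31.7% of all tested probes were called, and the list's median change was -0.45 against 0.17 over all tested probes. TXN2, the mitochondrial thioredoxin, had a change of -0.85, and TXNRD1, the reductase that recycles thioredoxin, also -0.85. In DoxyNaB/Doxy, SRXN1 was higher and PRDX3 and TXNRD1 (-1.03) were lower, and with quantile normalization TXNRD1 stood at -0.94 and was not called. When arrays were scaled to their median with a floor, 8 genes of the list were called lower and none higher in NaB/Ctl, with SRXN1 at 0.98. Of all tested probes 40.4% were called under that scaling, 78.1% of them lower. With normexp correction and with quantile normalization SRXN1 was the 1 gene called, and PRDX3 stood at -0.98 and -0.88.

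In the list of MondoA and glucose uptake, 11 of 12 genes were tested. HK1 (a hexokinase, 1.38), FOXO1 (a forkhead transcription factor, 1.37) and PRKAA2 (a catalytic subunit of AMP-activated kinase, 1.36) were called higher in NaB/Ctl, with adjusted p between 2.2e-11 and 4.8e-08. None was called lower and 8 were not called, so that 3 of 11 were called where 31.7% of all tested probes were. With normexp correction HK1 alone was called, and PRKAA2 stood at 0.49. With quantile normalization HK1 and FOXO1 were called, and PRKAA2 stood at 0.22 (adjusted p = 0.579). Under median scaling with a floor these 3 genes stood between 0.63 and 0.65, not called, and 3 others were called lower. MLXIP, which encodes MondoA, had a change of -0.32 (adjusted p = 0.0209) and its partner MLX one of -0.28. SLC2A1, the glucose transporter GLUT1 that TXNIP is known to restrain, had -0.74 in NaB/Ctl and was called lower in DoxyNaB/Doxy at -1.24. In DoxyNaB/Doxy, HK1 (1.55) and FOXO1 (1.23) were called higher, and PRKAA2 (0.90) was not called. The list's median was 0.24 in NaB/Ctl and -0.0029 in DoxyNaB/Doxy. In Doxy/Ctl, DDIT4, a stress-induced inhibitor of mTORC1, rose by 1.32 (adjusted p = 1.2e-07). It was the 1 gene of the 4 lists called in that comparison, and under median scaling with a floor it stood at 1.23 and was not called (adjusted p = 0.0206).

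Among ubiquitin ligases and sorting partners, 10 of 12 genes were tested. ITCH, a ligase that binds TXNIP, fell by 1.32 in NaB/Ctl (adjusted p = 4.1e-05), and 9 were not called, where 31.7% of all tested probes were called. ITCH was well above background on 5 of 6 arrays in each of NaB and DoxyNaB. With normexp correction it stood at -0.95 and was not called. With quantile normalization ITCH (-2.44) and SMURF2 (-1.60) were called lower in NaB/Ctl, as both were with median scaling. In DoxyNaB/Doxy, ITCH (-1.24) and SMURF2 (-1.55) were called lower, also with quantile normalization and with median scaling. With normexp correction neither was called there, at -0.42 (adjusted p = 0.0580) and -0.62. NEDD4L had 0.79 and WWP2 had 0.36 in NaB/Ctl, both short of 2-fold. TSG101, the partner of ARRDC1, had 0.30. The list's median was 0.13 in each of the butyrate comparisons.

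Among other arrestin-fold proteins and cargo, 8 of 10 genes were tested. In NaB/Ctl 2 were called, 1 in each direction, where 31.7% of all tested probes were called. ITGB4, the integrin beta4, fell by 2.16 (adjusted p = 4.8e-13). SAG, the visual arrestin, was the gene called higher, but 5 of 6 Ctl arrays and 1 of 6 NaB arrays did not have it well above background. Its difference was 2.88, and with normexp correction 0.43 (adjusted p = 0.252). In DoxyNaB/Doxy, SAG and ITGB4 had 2.70 and -2.22, both past the thresholds. With normexp correction SAG had 1.06 there (adjusted p = 0.0062) and was still called higher. With quantile normalization and with median scaling SAG was called in both comparisons. SAG was above background on 2 of 6 Doxy arrays and on 6 of 6 DoxyNaB arrays. It entered the test through DoxyNaB alone, a group in which it was high, so its calls are not independent of the filter. The non-visual arrestins had -0.57 (ARRB1, -1.38 and called lower with quantile normalization) and 0.31 (ARRB2), and the list's median was 0.22. No gene of the 4 lists passed the interaction.

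**Figure D4:**
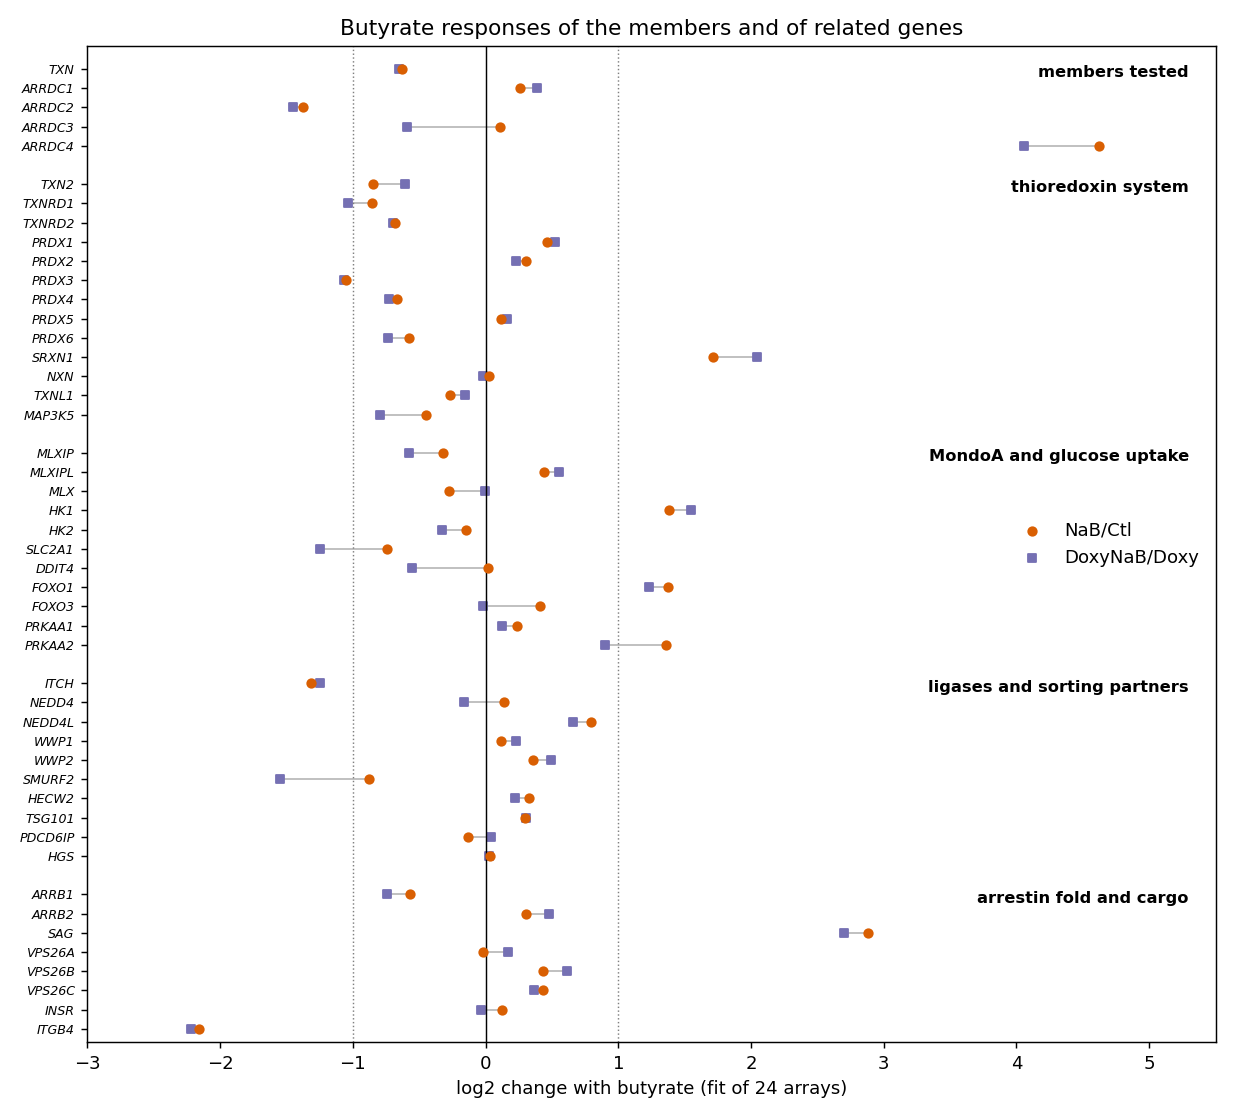
Log2 change with butyrate (x axis) in the fit of all 24 arrays, for the 5 tested members and the tested genes of the 4 lists (y axis), as circles for NaB/Ctl and squares for DoxyNaB/Doxy, joined by a grey line per gene. Dotted lines mark a 2-fold change. ARRDC4 at 4.62 lies farthest to the right and ITGB4 at -2.16 farthest to the left. SAG at 2.88 in NaB/Ctl was dim on 5 of 6 Ctl arrays and stood at 0.43 in that comparison with normexp correction.

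Genes with a like pattern were ranked by Pearson's r over 24 levels, each centred on its experiment, among 14516 probes. These were well above background on all arrays and had no level missing through outlier spots. All arrays share the treatments and their brightness, so r is a description only. ARRDC4 was matched most closely by SEPTIN4 (r = 0.996), a septin, GAST (0.995), the hormone gastrin, SYTL2 (0.995), PREX1 (0.995) and CHRFAM7A (0.994). These rose with butyrate by between 1.98 and 4.98 in NaB/Ctl on the log2 scale. The closest to ARRDC3 were YTHDC2 (0.88), NUDCD1 (0.87), CTAGE11P (0.86), SLC25A36 (0.85) and MAMLD1 (0.85), none of which was called in NaB/Ctl. For TXNIP the highest r belonged to ENST00000447142 (0.95), LOC100130285 (0.95), SIGLEC14, KLRG2 and FLJ25694 (each 0.94). The lowest belonged to ATP5F1E, RPL24 and RPLP0P5 (-0.88, -0.88 and -0.89), that is, a subunit of ATP synthase, a ribosomal protein and a ribosomal protein pseudogene.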

How the data were processed

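Gene expression was measured on 24 one-colour Agilent arrays, 6 for each of 4 treatments. The deposited files hold spot intensities written by Agilent Feature Extraction 9.5.3.1 per the file headers, with coordinates on NCBI36. Per the file headers, the software subtracted background and a spatial trend from these intensities and put surrogates in place of values too close to the negative controls. The authors compared treatments with a paired test in GeneSpring GX. The number of arrays and the signal over background limit the precision.

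From these files, outlier spots and control spots were left out, spots of a probe were averaged, and levels were expressed as log2 relative to the 75th percentile of each array. Treatments were compared with limma 3.58.1 in R 4.3.3 (lmFit and eBayes) on all 24 arrays with the experiment as a block. Probes were tested where some treatment had all 6 of its arrays well above background (18983 of 34127 probes). A call needed more than a 2-fold change and an adjusted p under 0.01 (Benjamini-Hochberg, over all tested probes), and the interaction no fold. For a tested value, a change of sign under another setting counted only where the value was called. The script for the fit was tested on simulated data. In the lists, a gene was represented by its tested probe of highest mean level, and up to 3 genes called higher and 3 called lower in NaB/Ctl were named by rule, and any past the interaction. Other list genes named with values, the partners and targets TXN2, TXNRD1, MLXIP, MLX, SLC2A1, DDIT4, NEDD4L, WWP2, TSG101, SMURF2, ARRB1 and ARRB2, and the markers EPCAM, CDH1, KRT19, CDX2 and COL1A1, were chosen after their values were seen. Gene symbols came from a RefSeq table through the accession for 24827 probes and from the files for 9300. Promoters came from RefSeq on GRCh38.p14. The members and lists were chosen with earlier results of these data known.

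The experiment numbers were used as pairs because the methods name a paired test. Over 36 pairs of arrays that share a number, the deviations from the treatment means correlated with a median r of 0.57 (lowest -0.22, for NaB and DoxyNaB of experiment 3), against -0.20 for arrays with different numbers. Protein sequences and a genome were not used here, and 1 gene of the list of arrestin-fold proteins and cargo is not reported here.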

Additional observations from a re-analysis of the deposited data

Results flagged for a closer look

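The level of ARRDC1 on the Doxy array of experiment 1 was 1.47, apart from the other 5 Doxy arrays, which were between 0.65 and 0.94. The level of ARRDC2 on the Ctl array of experiment 1 was 0.69, apart from the other 5 Ctl arrays, which were between 0.02 and 0.22. Each gap passed Dixon's 95% critical value for 6 samples, in 24 groups examined, and chance flags about 1 group in 20. Without experiment 1, the ARRDC2 change was -1.30 in NaB/Ctl and -1.42 in DoxyNaB/Doxy, and both were still called.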

How the results depend on the processing

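Under 22 other settings, ARRDC4 stayed between 2.98 and 5.15 in NaB/Ctl and between 2.76 and 4.33 in DoxyNaB/Doxy on the log2 scale and was called wherever it entered. ARRDC2 stayed between -2.10 and -1.08 and between -1.99 and -0.99. It lost its call in DoxyNaB/Doxy with normexp correction, which left 1 member called there, where 19.1% of all tested probes were called. Scaling to the median with a floor gave 4 members called in DoxyNaB/Doxy, with TXN and ARRDC3 added, where 36.4% of all tested probes were called. It moved the share of higher calls over all probes in NaB/Ctl from 65.3% to 21.9% (43.8% with quantile normalization, 53.2% with normexp). A filter that kept only probes well above background on all arrays left 1 member called in each butyrate comparison, since ARRDC3 and ARRDC4 did not enter. Of all probes it kept, 26.6% were called in NaB/Ctl and 26.2% in DoxyNaB/Doxy. The methods' t-test without adjustment called 1 member, ARRDC4, in the interaction, where 4.44% of all tested probes were called. Without the replicate block, 2 members were called in each butyrate comparison and 0 in the interaction, and no member's call changed. The shares of all tested probes were then 29.1% in NaB/Ctl, 28.1% in DoxyNaB/Doxy and 0.448% in the interaction. Leaving out each experiment in turn gave 2 members called in each butyrate comparison and 0 in the others. Of all tested probes, between 30.8% and 32.1% were then called in NaB/Ctl and between 30.0% and 30.7% in DoxyNaB/Doxy. In the other comparisons at most 1.03% were. The TXNIP difference then stood above that of TXN by 1.65 (without experiment 3) to 2.95 in NaB/Ctl. In DoxyNaB/Doxy it did so by 1.28 (without experiment 2) to 2.29. Of 605 single values under other settings, 597 kept their call or lack of one. These include the TXNIP values of 14 settings in each comparison. With the filter on dim probes TXNIP was not tested, so its lack of a call was fixed in advance there. Over all probes, the NaB/Ctl count was 6016, against 3001 with normexp and 9820 at a 1.5-fold threshold. The DoxyNaB/Doxy count was 5805, against 3628 and 9593. The interaction count was 236, against 85 without the block, 843 by the methods' t-test without adjustment and 0 after Benjamini-Hochberg adjustment. It was 154, 196, 148, 129, 118 and 132 without experiments 1 to 6 in turn. With median scaling the interaction count was 9, with normexp 43. The Doxy/Ctl count was 18, against 11 with normexp, 5 with median scaling and 3 by the methods' t-test after Benjamini-Hochberg adjustment. The DoxyNaB/NaB count was 72, against 38, 44 and 15. TXNIP, dim on 16 of 24 arrays, ranged from 0.10 to 3.88 in NaB/Ctl, and the cause was not tested.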
